A study of Mus musculus with 16 samples.

Results

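The neutrophil granule and receptor genes described here are S100a8, S100a9, Csf3r, Retnlg, Mmp8, Ngp, Ltf and Camp. Each was read from the probe set of the Mouse Gene 2.1 ST array that names that gene alone, taking the one of highest mean signal, and each gene had just 1 such probe set. These 8 are among 22179 genes with a probe set of their own and 40543 probe sets in all. The set was chosen by signal values of these same arrays, in which cinacalcet tumor 9 stood high, so their level in that tumor, and every difference that includes it, is a description and supports nothing by itself.

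RNA came from xenografts of LA-N-1, a MYCN-amplified human neuroblastoma cell line, grown under the skin of female athymic Nude-Foxn1 nu/nu mice that were 4 to 6 weeks old at inoculation. These mice lack T cells and keep their neutrophils. The 3 prolonged cinacalcet tumors (C9, C10 and C11) and 5 shorter cinacalcet tumors (C4 to C8) came from mice given cinacalcet, an allosteric activator of the calcium-sensing receptor, at 10 mg/kg by gavage (daily in the labels, 6 days a week in the methods), and the 8 vehicle tumors (V5 to V12) came from mice given vehicle the same way. The treatment labels give vehicle or CaSR (calcium-sensing receptor) allosteric activator alone. The study's methods name the drug as cinacalcet and C9 to C11 as the tumors treated longest. C6 was left out of the fits, as in those methods, which left 7 cinacalcet tumors. Dosing went on until a tumor reached 2 cm3, so the length of treatment was an outcome of growth, and the 2 cannot be told apart here.

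Neutrophils are short-lived white cells that leave the marrow with antimicrobial proteins already packed in granules. Azurophil granules are filled first, in promyelocytes, with proteases and peroxidase; specific granules follow, in myelocytes and metamyelocytes, with lactoferrin, cathelicidin and neutrophilic granule protein; gelatinase granules come last. The granule transcripts are made mostly during this maturation, whereas the G-CSF receptor and the S100a8 and S100a9 alarmins are also transcribed by mature cells. In tumors, neutrophils are drawn in by chemokines that bind Cxcr2.

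Among the 8 genes, S100a8, S100a9, Csf3r and Retnlg were highest in C9, Ngp and Ltf were highest in V5 and V9, and Mmp8 and Camp set no tumor apart. The promoters are printed for the calprotectin partners S100a8 and S100a9 and for the granule genes Ngp and Ltf, each a pair with the same 2 highest tumors. S100a8 and S100a9 lie next to each other on chromosome 3, with 0 protein-coding genes between them in the RefSeq annotation. Ngp and Ltf lie on chromosome 9 with 20 protein-coding genes between them, and Camp lies 8 genes from Ngp on its other side. The windows are from RefSeq (GRCm38.p6), 250 bases before to 50 bases after the start of each gene, and 8 of 8 genes had one. Capitals mark matches, on either strand, to the core of PU.1 sites (GAGGAA) and to TTGCNNAA, a motif of C/EBP factors, and, on the gene's strand, to the TATA box (TATAAA).
S100a8 (chr3:90668821-90669120, forward strand): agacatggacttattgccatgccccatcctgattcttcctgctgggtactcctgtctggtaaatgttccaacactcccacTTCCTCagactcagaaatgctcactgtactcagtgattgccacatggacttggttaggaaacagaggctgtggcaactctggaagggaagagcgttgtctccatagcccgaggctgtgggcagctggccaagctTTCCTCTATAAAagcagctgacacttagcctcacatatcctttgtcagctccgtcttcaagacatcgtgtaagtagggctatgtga
S100a9 (chr3:90695672-90695971, reverse strand): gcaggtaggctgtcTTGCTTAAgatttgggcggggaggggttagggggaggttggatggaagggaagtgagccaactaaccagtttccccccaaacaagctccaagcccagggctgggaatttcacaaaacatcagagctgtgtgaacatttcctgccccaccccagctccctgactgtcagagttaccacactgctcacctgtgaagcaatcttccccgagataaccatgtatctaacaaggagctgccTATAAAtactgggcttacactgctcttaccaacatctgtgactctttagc
Ngp (chr9:110419558-110419857, forward strand): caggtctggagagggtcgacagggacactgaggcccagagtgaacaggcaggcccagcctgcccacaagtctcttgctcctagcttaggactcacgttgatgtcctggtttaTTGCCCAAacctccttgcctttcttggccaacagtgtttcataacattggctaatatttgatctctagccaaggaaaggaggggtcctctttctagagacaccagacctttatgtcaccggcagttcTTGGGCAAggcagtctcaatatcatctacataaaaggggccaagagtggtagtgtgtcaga
Ltf (chr9:111019042-111019341, forward strand): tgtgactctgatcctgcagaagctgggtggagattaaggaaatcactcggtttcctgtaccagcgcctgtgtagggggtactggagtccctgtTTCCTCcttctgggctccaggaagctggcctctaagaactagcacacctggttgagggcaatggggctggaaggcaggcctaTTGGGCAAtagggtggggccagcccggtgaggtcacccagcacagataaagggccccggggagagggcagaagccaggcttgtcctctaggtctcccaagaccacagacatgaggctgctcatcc
In the S100a8 window the second PU.1 core match, at positions -36 to -31 from the start, adjoins the TATA box at -30 to -25 without overlapping it, and no C/EBP match was found. The S100a9 window held a C/EBP match at -236 to -229. Its match to the TATA box letters, at 1 to 6, lies at the annotated start and not before it. The Ngp window held 2 C/EBP matches, at -138 to -131 and -11 to -4. The Ltf window held 1, at -75 to -68, with a PU.1 core match at -157 to -152. Of all 8 windows, 5 held a C/EBP match, against 10.8% of 32851 windows of the same length. A PU.1 core match was in 4, against 28.3%, and a match to the TATA box letters in 2, against 8.32%. These matches are a description of letters in the windows and were not tied to any binding.

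Signals are given on the log2 scale of the RMA normalization, on which 1 unit is a doubling. Among 16 genes restricted to other tissues, used as a gauge of background, the pooled median over the 15 tumors was 1.32 and the 95th percentile 2.07. Csf3r lay above that percentile in 15 of 15 tumors. S100a8 did so in 2 tumors, Ngp in 2, Ltf in 2, S100a9 in 1, Retnlg in 1, and Mmp8 and Camp in 0. Apart from Csf3r, these genes were therefore near background in most tumors. A marker that defines neutrophils in the mouse, Ly6g, was between 0.97 and 2.42 in the 15 tumors, with 1.39 in C9, so the label rests on the other genes. Human transcripts of the tumor cells could bind mouse probes, and no array of human cells alone was used. In bulk RNA, fewer cells of a type and less RNA per cell cannot be told apart.

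**Figure D1:**
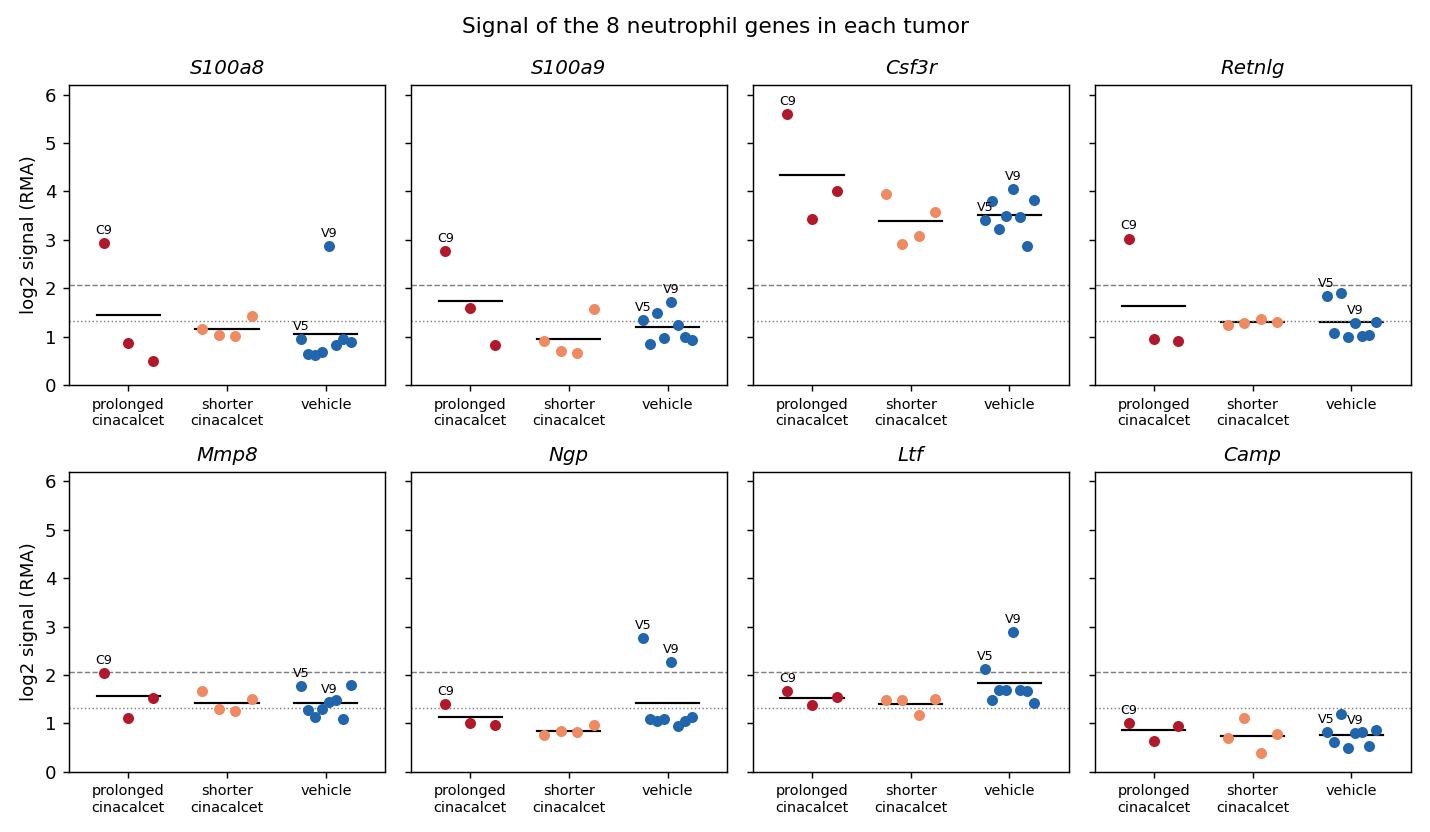
Log2 signal of each of the 8 genes (vertical axis) in the 3 prolonged cinacalcet, 4 shorter cinacalcet and 8 vehicle tumors; points are tumors and bars are group means. The dotted and dashed lines are the median (1.32) and the 95th percentile (2.07) of 16 tissue-restricted genes. C9 stands apart for S100a9, Csf3r and Retnlg, C9 and V9 for S100a8, and V5 and V9 are highest for Ngp and Ltf.

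Csf3r encodes the receptor for G-CSF, the main growth factor of neutrophils. Its signal was 5.60, 3.43 and 4.01 in prolonged tumors C9, C10 and C11. It was 3.95, 2.92, 3.08 and 3.57 in shorter tumors C4, C5, C7 and C8. In vehicle tumors the lowest was 2.88, the median 3.48 and the highest 4.05. C9 was 2.12 above the median of the other 14 tumors, and those 14 spanned 2.88 to 4.05 with the groups intermixed. C9 was thus the sole tumor outside the range of the others by over 1 log2 unit, with V9 next at 4.05 and then C11 at 4.01.

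S100a8 encodes a calcium-binding alarmin that forms calprotectin with S100a9. It stood at 2.93, 0.88 and 0.50 in prolonged tumors C9, C10 and C11, and at 1.16, 1.04, 1.01 and 1.42 in shorter tumors C4, C5, C7 and C8. In vehicle tumors it had a low of 0.62, a median of 0.86 and a high of 2.87, in V9. C9 and V9 were both high, 1 with cinacalcet and 1 with vehicle, and the next tumor, C8, was at 1.42. The groups overlapped.

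S100a9 encodes the partner of S100a8. It stood at 2.77, 1.59 and 0.82 in prolonged tumors C9, C10 and C11, and at 0.90, 0.69, 0.66 and 1.58 in shorter tumors C4, C5, C7 and C8. In vehicle tumors it had a low of 0.85, a median of 1.12 and a high of 1.72, in V9. C9 was again highest and V9 second, but V9 stood only 0.73 above the median of the other 14 tumors, where for S100a8 it stood 1.95 above. Over the 15 tumors Pearson's r between S100a8 and S100a9 was 0.75; it was 0.49 without C9 and 0.18 without C9 and V9, so the relation rested on those tumors.

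Retnlg encodes resistin-like gamma, a secreted protein of mouse myeloid cells. It stood at 3.03, 0.94 and 0.90 in prolonged tumors C9, C10 and C11. In shorter tumors C4, C5, C7 and C8 it was 1.24, 1.28, 1.37 and 1.30, the narrowest group for this gene. In vehicle tumors it had a low of 0.99, a median of 1.18 and a high of 1.9, in V7. C9 was the highest tumor and C10 and C11 the lowest, so prolonged tumors lay at both ends of the range.

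Mmp8 encodes neutrophil collagenase, stored in specific granules. Its signal was 2.03, 1.12 and 1.52 in prolonged tumors C9, C10 and C11 and 1.66, 1.29, 1.26 and 1.5 in shorter tumors C4, C5, C7 and C8. In vehicle tumors the lowest was 1.10, the median 1.37 and the highest 1.80. C9 was highest, with V12 next at 1.80, but was below the background percentile, and this gene did not set C9 apart. Across the 15 tumors r between Mmp8 and Csf3r was 0.75 (0.57 without C9), with Mmp8 below the background percentile in every tumor.

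The specific granule genes Ngp, Ltf and Camp did not share the peak in C9. Ngp encodes neutrophilic granule protein, a cystatin-like protein of mouse granules. It stood at 1.40, 1.01 and 0.96 in prolonged tumors C9, C10 and C11, and at 0.77, 0.85, 0.83 and 0.96 in shorter tumors C4, C5, C7 and C8. Of the 8 vehicle tumors, V5 (2.76) and V9 (2.28) were high and the other 6 lay between 0.94 and 1.12. C9 ranked 3 of 15. Prolonged and shorter tumors did not overlap, although C11 and C8 were both at 0.96, and 6.86% of all probe sets did not overlap between these groups.

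Ltf encodes lactotransferrin, the iron-binding protein of specific granules. It stood at 1.67, 1.37 and 1.55 in prolonged tumors C9, C10 and C11, and at 1.47, 1.49, 1.16 and 1.49 in shorter tumors C4, C5, C7 and C8. In vehicle tumors it had a low of 1.42, a median of 1.69 and a high of 2.89, in V9, with V5 next at 2.11. C9 ranked 7 of 15. The 2 highest tumors were thus the same for Ngp and Ltf, in the opposite order, and r between these genes was 0.80 (0.45 without V5 and V9). Camp, which encodes cathelicidin, a microbicidal peptide, was between 0.40 and 1.18 in the 15 tumors, with its highest value in V7, and separated no tumor.

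Over the 8 genes, C9 was the highest of 15 tumors for 5, where it was highest for 7.79% of all 40543 probe sets. It was over 1 log2 unit above every other tumor for 3 (S100a9, Csf3r and Retnlg; 0.671% of all probe sets) and over 1 unit above the median of the others for 4 (5.18%). V9 was over 1 unit above that median for S100a8, Ngp and Ltf (3.68% of all probe sets) and V5 for Ngp (3.77%). V5 also had the highest array median, 1.85, and the highest median of the tissue-restricted genes, 1.69, where those genes' median was between 1.03 and 1.47 in the other vehicle tumors. V9 had 1 tissue-restricted gene, Cyp2e1, at 5.43. The part of these features in the Ngp and Ltf signals was not tested. C6, the tumor left out, was below the background percentile for 7 of the 8 genes, with Ltf closest at 2.04, and had Csf3r at 3.69.

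The first comparison asked whether cinacalcet changed these genes at all. Mean Csf3r signal was 3.80 ± 0.90 (SD, n = 7) in cinacalcet tumors and 3.52 ± 0.37 (SD, n = 8) in vehicle tumors, a difference of 0.28 log2 units (SE 0.33, limma adjusted p = 0.918). It was the 1 gene of the 8 that passed the filter on signal and variability, which kept 10136 probe sets. The other 7 were read from the fit without that filter. Ngp averaged 0.97 ± 0.21 (SD, n = 7) in cinacalcet tumors and 1.42 ± 0.69 (SD, n = 8) in vehicle tumors, a difference of -0.45 log2 units (SE 0.25, limma adjusted p = 0.909). Ltf averaged 1.46 ± 0.16 (SD, n = 7) in cinacalcet tumors and 1.83 ± 0.47 (SD, n = 8) in vehicle tumors, a difference of -0.37 log2 units (SE 0.18, limma adjusted p = 0.909). All 7 cinacalcet tumors lay below the vehicle mean for both genes, a mean raised by V5 and V9; without V5 the value for Ngp was -0.26, and without V9 that for Ltf was -0.22. The 5 other genes had log2 fold changes between 0.02 and 0.22. None of the 8 passed an adjusted p of 0.05 by limma, which called 0% of all probe sets, and 0 passed an unadjusted p of 0.05 in either direction, in a fit without the filter in which 2.07% of all probe sets were higher and 3.03% lower.

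Csf3r averaged 4.35 ± 1.12 (SD, n = 3) in prolonged tumors and 3.52 ± 0.37 (SD, n = 8) in vehicle tumors, a difference of 0.83 log2 units (SE 0.40, limma adjusted p = 0.580). Of the 3 tumors, 2 lay above the vehicle mean and 1, C9, above the highest vehicle tumor. Without C9 the value was 0.20, and without C10 it was 1.29. S100a9 averaged 1.73 ± 0.98 (SD, n = 3) against 1.19 ± 0.31 (SD, n = 8), a difference of 0.53 log2 units (SE 0.32, limma adjusted p = 0.704), which was 0.01 without C9. S100a8 had a value of 0.39, Retnlg of 0.32 and Mmp8 of 0.14, and without C9 these were -0.36, -0.39 and -0.09, on the other side of 0. No gene passed the adjusted threshold (0% of all probe sets did). At an unadjusted p of 0.05 without the filter, 1 gene, Csf3r, was higher and 0 were lower, where 3.66% and 3.48% of all probe sets were. Its unadjusted limma p was 0.039 in that fit. With the filter, the fit that gave its value above, Csf3r had an unadjusted limma p of 0.052 and did not pass. The median of the 8 log2 fold changes was 0.23, with 6 of 8 above 0, beside -0.06 over all probe sets. Genes of other kinds had higher medians in this comparison. It was 0.48 over 9 housekeeping genes, of which 9 were above 0 and 2 had an unadjusted p under 0.05. It was 0.79 over 11 monocyte and macrophage markers, with 11 above 0, and 0.53 over 8 fibroblast markers, with 7 above 0. A median above that of all probe sets was therefore not particular to the 8 genes.

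In the shorter tumors against vehicle, Csf3r averaged 3.38 ± 0.47 (SD, n = 4) against 3.52 ± 0.37 (SD, n = 8), a difference of -0.14 log2 units (SE 0.36, 95% confidence interval -0.90 to 0.62). The widest differences were those of Ngp, -0.57 (SE 0.31), and Ltf, -0.43 (SE 0.22). Both had a limma adjusted p of 0.999985, and the 4 shorter tumors lay below the vehicle mean for both. The other 5 genes were between -0.24 and 0.10. The median over the 8 was -0.08, beside -0.01 over all probe sets, and 0 genes passed the adjusted threshold (0% of all probe sets did). At an unadjusted p of 0.05 without the filter 0 were higher and 0 lower, where 2.03% and 1.64% of all probe sets were.

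The prolonged and shorter tumors were then compared with each other. Csf3r averaged 4.35 ± 1.12 (SD, n = 3) in prolonged and 3.38 ± 0.47 (SD, n = 4) in shorter tumors, a difference of 0.97 log2 units (SE 0.45, limma adjusted p = 0.811), and 3 of 3 prolonged tumors lay above the shorter mean. It was 0.34 without C9 and 1.43 without C10. S100a9 had a difference of 0.77 log2 units (SE 0.36, limma adjusted p = 0.864), 0.25 without C9. All 8 values were above 0, where 42.9% of all probe sets were, with a median of 0.28. The direction was shared with 11 of 11 monocyte and macrophage markers, whose median was 0.86, and with 8 of 9 housekeeping genes, whose median was 0.36. Without C9 the values of S100a8, Retnlg and Mmp8 were -0.47, -0.38 and -0.11. The prolonged group of 3 held the 1 tumor that stood apart, and the difference between courses was smaller than the SD within the prolonged group for Csf3r, S100a8, S100a9 and Retnlg. This comparison and the one before it share tumors, and none of the genes passed the adjusted threshold (0% of all probe sets did). At an unadjusted p of 0.05 without the filter, 1 gene, Csf3r, was higher and 0 were lower, where 2.46% and 3.06% of all probe sets were.

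**Figure D2:**
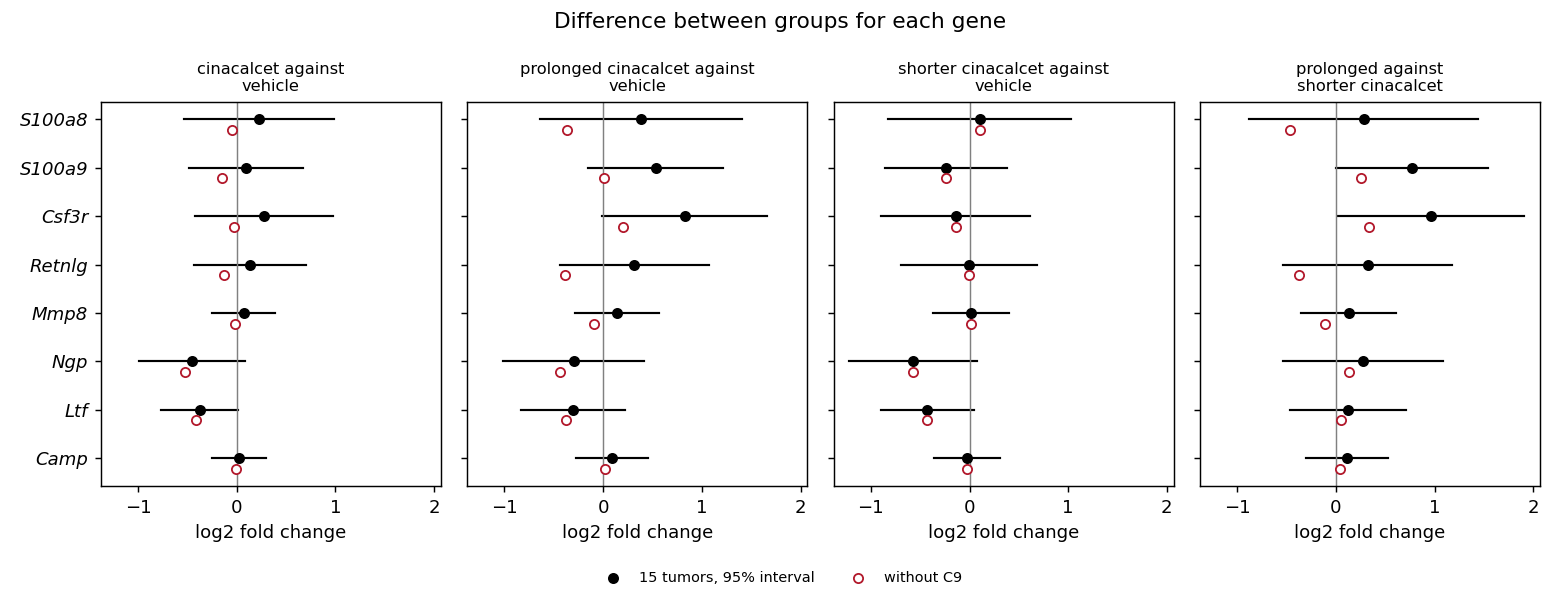
Log2 fold change of each gene (horizontal axis) in the 4 comparisons, with 95% confidence intervals from limma over 15 tumors (filled points) and the value without C9 (open points). In the prolonged comparisons Csf3r is at 0.83 and 0.97 with all tumors and at 0.20 and 0.34 without C9, and S100a8, Retnlg and Mmp8 cross 0.

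Other genes of neutrophils were read in the same tumors, from lists chosen with results of these data known. Of 12 other specific and gelatinase granule genes, 7 were highest in C9, as 7.79% of all probe sets were. Of the 12, 8 passed the filter, and C9 was highest for 16.1% of the probe sets that passed it. Mmp9, which encodes gelatinase B, was at 4.32 in C9 and at most 4.01 elsewhere. Cybb, the catalytic subunit of the NADPH oxidase, was at 9.26 in C9 and at most 7.74 elsewhere. Hp, which encodes haptoglobin, was highest in V9, at 8.34, with 6.97 in C9 and its lowest value, 2.05, in V5. Lcn2, which encodes the siderophore-binding lipocalin of specific granules, was at 6.39 in C9 and 5.55 in V9. In the prolonged tumors against vehicle, 2 of the 12 were higher at an unadjusted p of 0.05 in the fit without the filter and 0 lower, where 3.66% and 3.48% of all probe sets were.

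The azurophil granule genes lay near background and did not share the peak in C9. None of the 6 was highest in C9, and their median was 1.35, 1.32 and 1.57 in the prolonged tumors, between 1.45 and 1.71 in the shorter tumors and between 1.37 and 1.84 in vehicle tumors. Mpo, which encodes myeloperoxidase, and Elane, which encodes neutrophil elastase, were at 0.99 and 1.74 in C9, and the highest value of the list was 2.95, for the protease gene Prtn3 in V5.

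Of 14 receptors of mature neutrophils measured, 7 of which passed the filter, 6 were highest in C9, as Csf3r was. C9 was highest for 7.79% of all probe sets and 16.1% of those that passed the filter. The median of the 14 receptors was 3.11 in C9 and between 1.38 and 2.02 in the other 14 tumors. Clec4e, which encodes the pattern receptor Mincle, was at 7.23 in C9 and at most 3.0 elsewhere. Cxcr2, the receptor for the CXC chemokines that attract neutrophils, was at 5.47 in C9 and at most 3.47 elsewhere. Fpr2, a formyl peptide receptor, was at 5.32 in C9 and at most 2.67 elsewhere. These 3 are among the 6, and the rest of the 14 were highest in other tumors. Fcgr4 was highest in V12, at 6.77, with 5.74 in C9. Cxcr1 was highest in V11, at 2.28, and C9 ranked 9 of 15 for it, below the background percentile. Among 17 other genes of mature neutrophils, 10 of which passed the filter, 7 were highest in C9, against the same 7.79% and 16.1%. Il1b, which encodes interleukin 1 beta, was at 7.85 there and at most 5.09 elsewhere, and Acod1, which makes itaconate, at 6.23 and at most 2.73. Asprv1 was instead highest in C7, at 5.33, with 3.05 in C9, and Wfdc17 in V9, at 6.19, with 5.18 in C9. Over these 31 genes, 3 (Fpr2, Clec4e and Il1b) were higher in prolonged tumors than in vehicle tumors at an unadjusted p of 0.05 and 0 were lower, where 3.66% and 3.48% of all probe sets were; none passed after adjustment, and without C9 the count was 0.

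Ligands and signaling partners of the receptor were also measured. Of 18 genes for G-CSF, chemoattractants and their signaling, 13 were highest in C9, as 7.79% of all probe sets were. Of the 18, 13 passed the filter, and among all probe sets that passed it C9 was highest for 16.1%. Of the 9 housekeeping genes, 2 were highest in C9. Csf3, which encodes G-CSF itself and is named after its values were seen, was between 1.07 and 2.18 in the 15 tumors, near background, with 1.56 in C9. Cxcl2, a ligand of Cxcr2, was at 4.43 in C9 and at most 2.19 elsewhere. Stat3, which relays the signal of the G-CSF receptor, was at 6.72 in C9 and at most 6.12 elsewhere. Among transcription factors of the lineage, Spi1, which encodes PU.1, was at 5.97 in C9 and at most 5.35 elsewhere, and Cebpb was at 4.33 and at most 3.34. Cebpe, needed for specific granules and also named after its values were seen, was at 0.96 in C9 and 0.96 in V9, its lowest tumors.

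**Figure D3:**
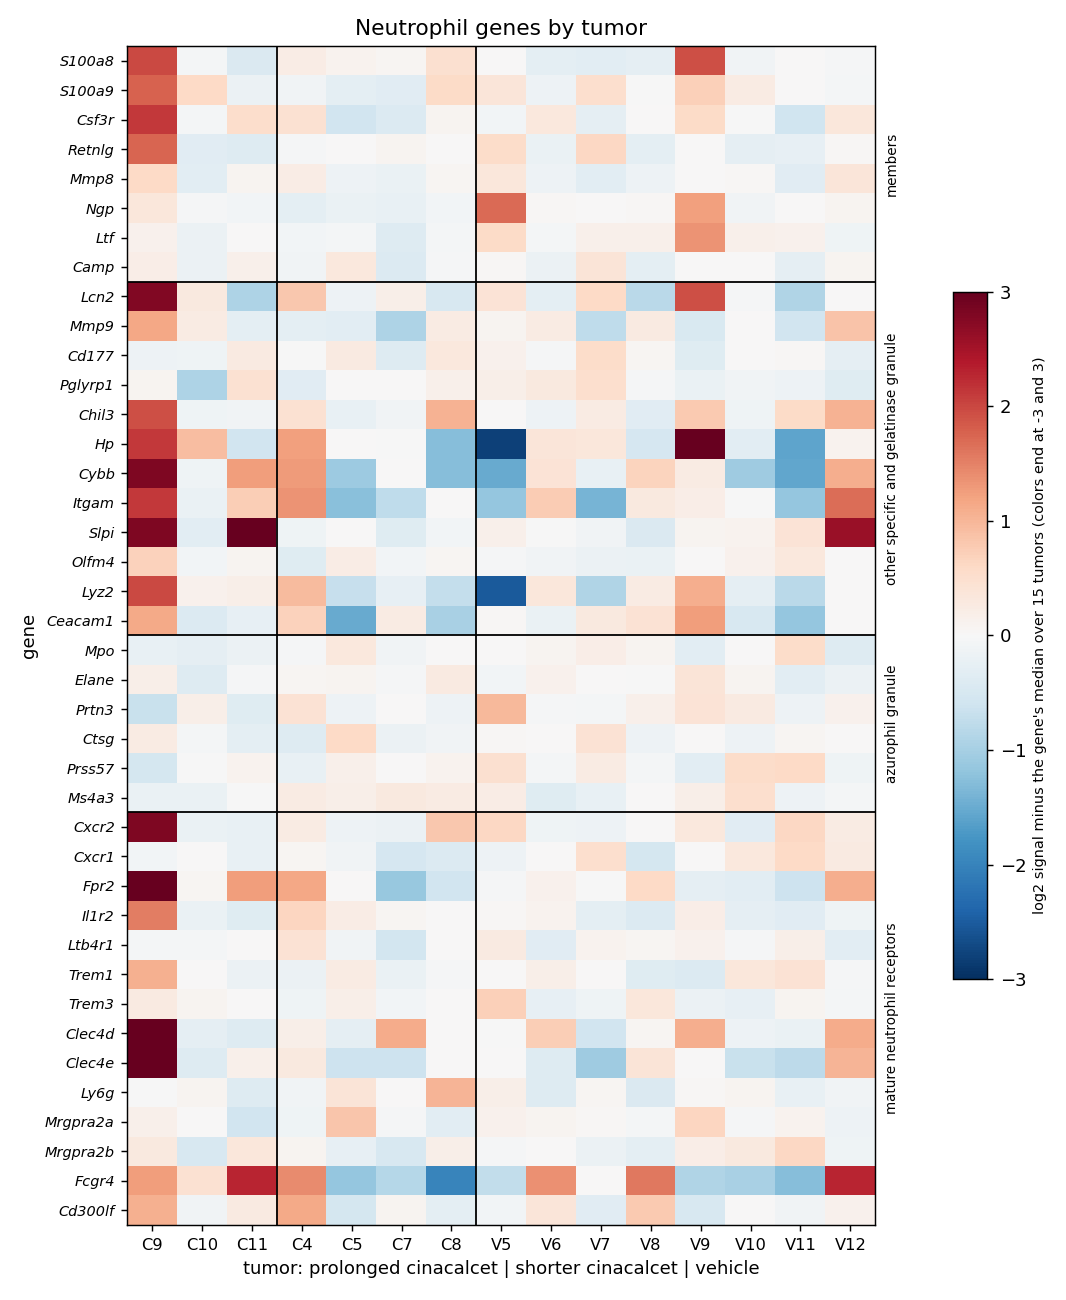
Log2 signal of the 8 genes and of 3 other lists, each gene minus its own median over 15 tumors (color, ending at -3 and 3), with prolonged cinacalcet tumors at the left, then shorter cinacalcet and vehicle tumors. C9 is red for S100a8, S100a9, Csf3r and Retnlg and for part of the granule and receptor lists, and azurophil genes show no such column.

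Several of these genes are shared with monocytes and macrophages. Of 11 markers of those cells, 4 were highest in C9, as 7.79% of all probe sets were. All 11 passed the filter, and C9 was highest for 16.1% of the probe sets that passed it. Ly6c2, of inflammatory monocytes, was among the 4, at 6.48 in C9 and at most 5.07 elsewhere. Cd14, a co-receptor for bacterial lipid from the list of partners of the 8 genes, was at 5.96 in C9 and at most 4.26 elsewhere. The median of the 11 was 6.64 in C9, 6.38 in C10 and 6.01 in C11, between 4.59 and 6.74 in shorter tumors and between 4.17 and 6.60 in vehicle tumors. Macrophage markers thus had a high signal in many tumors, and their median in C9 was below that in C4. In C9, 6 of the 11 were over 1 log2 unit above the median of the other 14 tumors. That held for 5.18% of all probe sets and 14.7% of those that passed the filter. The part of monocytes and macrophages in the C9 signals was not tested. None of 7 eosinophil, 8 mast cell and basophil, 11 keratinocyte, 2 red cell or 5 platelet markers was highest in C9. Of these, 1, 1, 3, 1 and 2 passed the filter, in that order. Most were therefore low or varied little, and their lack of a peak in C9 is a description alone. V9, where Ngp and Ltf were high, had 4 of 8 mast cell and basophil markers highest, as it had 5.5% of all probe sets. Among them Cpa3, a mast cell carboxypeptidase and the 1 of the 8 that passed the filter, was at 5.69. Tpsb2 was at 2.51, and Mcpt4 (1.79) and Cma1 (1.53) were below the background percentile of 2.07. V5 had the lowest median of 8 fibroblast markers, 3.61, where the other vehicle tumors had 6.44 to 8.39.

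**Figure D4:**
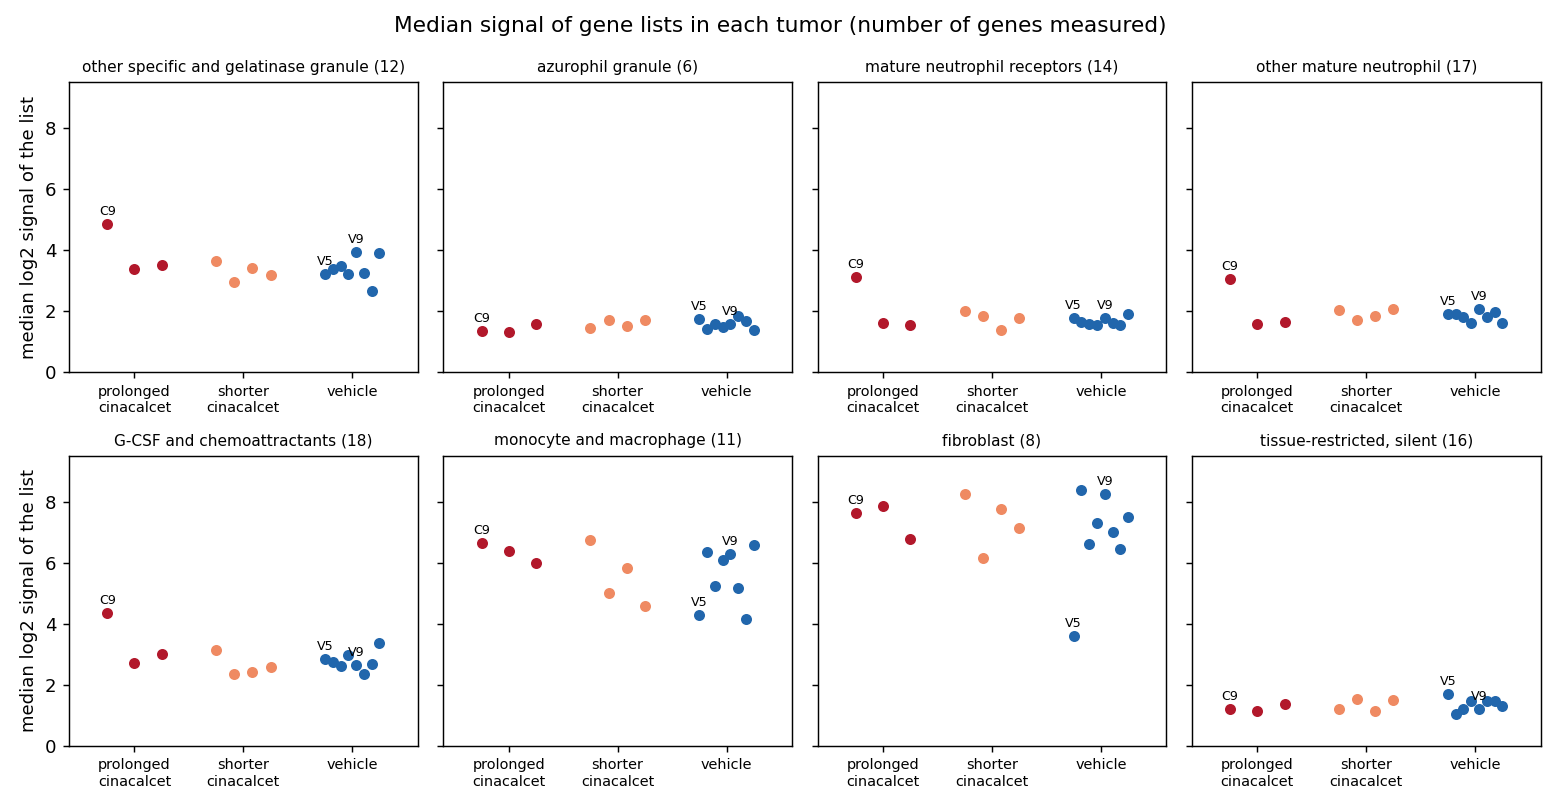
Median log2 signal of 8 gene lists (vertical axis) in each prolonged cinacalcet, shorter cinacalcet and vehicle tumor, with the number of genes measured above each panel. C9 stands above the other 14 tumors in the specific granule, receptor, mature neutrophil and chemoattractant lists, lies within their range in the azurophil and macrophage lists, and V5 is lowest for fibroblast markers.

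The genes whose pattern was most like that of the 8 were sought among 5061 single-gene probe sets kept by the filter, by Pearson's r over 15 tumors with the mean of the 8 genes, each scaled to an SD of 1. The closest were Itgb7 (0.90), Mcemp1 (0.87), Marco (0.85), Ighg3 (0.85) and Ccl3 (0.84), followed by Arg2, Met, Lcn2, Mcoln2 and Fabp7 down to 0.82. These values come from bulk RNA of the same 15 tumors and lean on C9 and V9. V9 was the second highest tumor, after C9, for each of the 10 but Ccl3. Without C9, just 1 of the 10, Itgb7, was again among the closest 10, at 0.78. The list was then led by Plin1 (0.89), Blk (0.80) and Rnase6 (0.78). These 3 were highest in V9 among the 14 tumors, at 3.21, 3.38 and 3.65, so that list leans on V9.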

How the data were processed

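Total RNA of 16 xenografts was profiled on the Mouse Gene 2.1 ST array. The deposited values are log2 signals of 40543 probe sets, to which the authors had applied RMA, including quantile normalization, so that a shift shared by all genes would be removed. The submitters' processing notes list RMA along with limma 3.24 and R 3.2. Array medians lay between 1.58 and 1.85. Genes were named from the platform annotation. As in the study's methods, C6 was excluded, probe sets in the lower 50% by mean signal were dropped and then those in the lower 50% by SD. Groups were compared with limma 3.58.1 (lmFit, eBayes) in R 4.3.3 with Benjamini-Hochberg adjustment. For a gene that the filter removed, values come from the same fit on all probe sets. Tumors are the replicates, and their number limits the precision. The p-values weigh each difference between groups against the spread between tumors within groups. Each fit takes that spread as equal in its groups, whereas the SD of Csf3r was 1.12 in prolonged and 0.37 in vehicle tumors. The script was tested on simulated data. Alternatives covered the filter, C6, a replicate block, scaling, array weights, trended variances and each tumor left out.

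The 8 genes, the lists and the tests were chosen with earlier results of these data known. Besides the 8, each list's 4 genes of highest mean signal and 2 of smallest p in each comparison could be named, with the 10 genes most like the 8. Genes named outside that rule are marked in the text.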

Additional observations from a re-analysis of the deposited data

Results flagged for a closer look

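In 75 groups of 4 to 8 tumors, covering the 8 genes and the medians of 17 gene lists, 13 had 1 tumor far from all others by Dixon's ratio. Chance flags about 5% of groups, but the genes and lists were chosen with the signals of C9 known, so the count of 13 is a description and is not set against that share. Cinacalcet tumor C9 was far above the other cinacalcet tumors by this ratio for S100a8 (2.93), Csf3r (5.60), Retnlg (3.03) and Ngp (1.40). For Ngp the next cinacalcet tumor was at 1.01. Those Ngp values all lay below the background percentile of 2.07, so that flag is no peak in C9. It was also far above them for the list medians of other specific and gelatinase granule genes (4.87), mature neutrophil receptors (3.11), other mature neutrophil genes (3.05) and G-CSF and chemoattractants (4.35). These lists share tumors and their genes vary together, so they are not separate observations. C7 was far below the other shorter cinacalcet tumors by this ratio for Ltf (1.16, the next at 1.47), with all of those tumors below the background percentile. Vehicle tumor V9 was far above the other vehicle tumors for S100a8 (2.87), Ltf (2.89) and the mast cell and basophil median (1.66, below the background percentile). V5 was far below them for the fibroblast median (3.61).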

How the results depend on the processing

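No gene of the 8 passed an adjusted p of 0.05 in any of 4 comparisons under 10 other settings, or with any 1 of 15 tumors left out (0 genes at the lowest and 0 at the highest). The lowest adjusted p was 0.434 (limma), for Csf3r in prolonged against vehicle tumors without C10. Of 800 log2 fold changes recomputed, 751 kept their sign and 49 turned, 29 of them with 1 tumor left out.

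With 1 tumor left out, the value in cinacalcet against vehicle tumors spanned -0.026 to 0.42 for Csf3r, and in shorter against vehicle tumors -0.33 to 0.015. In prolonged against vehicle tumors it spanned -0.36 to 0.85 for S100a8, -0.39 to 0.68 for Retnlg and -0.093 to 0.36 for Mmp8. In prolonged against shorter tumors it spanned -0.47 to 0.75 for S100a8, -0.38 to 0.68 for Retnlg and -0.11 to 0.35 for Mmp8. In these 2 comparisons the lowest value of each gene came without C9. Without C9 and V9 together, an alternative chosen after seeing the data, S100a8, Retnlg and Mmp8 were at -0.10, -0.39 and -0.088 in prolonged against vehicle tumors, and at -0.47, -0.38 and -0.11 in prolonged against shorter tumors. The 3 mature neutrophil genes at an unadjusted p of 0.05 became 0 without C9, and also without C9 and V9, and 6 without C10 or 7 without C11. Of the 10 genes most like the 8, 1 was again listed without C9 and 2 by Spearman's rho. The count of genes highest in C9 was 5 with each array's median subtracted, with quantile normalization and with C6 included.

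The tumor numbers gave a replicate block. Of 6 same-numbered pairs, 2 had deviations that correlated above 0.1, number 5 at 0.35 and number 9 at 0.37. So few pairs cannot show whether the numbers pair the tumors, and the main fits took the tumors as unpaired. With the block, the number of genes called stayed at 0, and S100a8 was at -0.11 in prolonged against vehicle and -0.52 in prolonged against shorter tumors. Each gene had 1 probe set, so averaging probe sets gave the same values.

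Of the 8 genes, 7 had a mean signal in the lower 50% of probe sets, near background. C9 is 1 tumor, and no second array of it was analysed here. The groups of 3 and 4 give wide intervals.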
